A study of Homo sapiens with 4 samples.

Results

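The proteasome is the protease complex that degrades proteins marked with ubiquitin. Its barrel-shaped core is built from PSMA (alpha) and PSMB (beta) subunits, with the catalytic sites inside the beta rings. Caps of PSMC ATPases and PSMD subunits bind, unfold and feed in substrates, PSME activators and the inhibitor PSMF1 act on the core, and PSMG chaperones assemble it. The genes described here are those whose symbol is PSM, a letter from A to G and a number. In all, 38 of the 6434 genes in the deposited gene table met this rule, which uses names and no measured value.

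The study estimated what share of each messenger RNA carries N1-methyladenosine (m1A), a base modification that blocks normal base pairing. Poly(A)-selected RNA of HepG2 cells, a human liver tumour line, was depleted with an antibody against m1A, and the RNA left behind was measured on arrays beside the starting RNA. The 2 supernatant samples were immunodepleted and the 2 input samples were not. All came from HepG2 cells in DMEM medium, with no other treatment or genetic change stated. The gene table names its columns supernatant A, supernatant B, input A and input B. Nothing in the labels says that letters stand for separate cultures, so the spread between columns may be technical.

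The table splits its genes into 5210 that have 1 m1A peak, called one-peak genes, and 1224 that have none, called non-m1A genes. Of the 38 proteasome genes, 36 (94.7%) were one-peak genes, against 81.0% of the whole table. The other 2, PSMB5 and PSMB8, were non-m1A genes. A list of 19 other pathway genes, described below, had the same one-peak share, 94.7%. Of 48 protein-coding PSM genes named in RefSeq (GRCh38.p14), 10 were not analysed here: PSMA5, PSMA6, PSMA8, PSMB9, PSMB11, PSMC1, PSMD7, PSMD11, PSMD12 and PSME2. All 38 symbols were current ones. For 15 of them RefSeq also names pseudogenes, 3 each for PSMA2, PSMC6 and PSMD10, and whether the probes tell these apart is not stated in the files or labels used here.

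Array signal per gene is given in deposited linear units of intensity. Brightness differs between probes, so it is given here as array signal and not read as transcript abundance. In RNA of bulk cultures, a level also cannot tell fewer cells of a type from less RNA per cell. The mean intensities of the proteasome genes ran from 38.3 (PSMB8) to 3929 (PSMA7), with a median of 988, against 174 for the whole table. The median was 218 for one-peak genes and 45.3 for non-m1A genes. The part of brightness in the one-peak share of the proteasome genes was not tested. The labelled cell type could be checked only in part. Of the liver markers, APOE had intensities of 26.2 and 33.8 in the supernatants, with 32.8 and 31.0 in the inputs, and the others are not reported here. Of 7 mesenchymal markers 2 were measured (VIM and COL1A1), of 5 leukocyte markers 1 (CD68), and of 4 endothelial and 3 erythroid markers none.

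The comparison of supernatant with input asked which transcripts the m1A antibody removed. How the columns of the table were scaled to each other is not stated. If they were brought to a common level, a change is relative to the other genes. A loss shared by most transcripts would then not show as a change below 0, so changes near 0 do not mean that no RNA was removed. None of the 38 proteasome genes passed limma's unpaired test at an adjusted p under 0.05, lower or higher, and none had an unadjusted p under 0.05. Over all genes 0.0155% passed, and 2.02% had an unadjusted p under 0.05. The adjusted p in this fit rounded to 1.00 for every proteasome gene. With the column letter as a replicate block in limma, again none passed, and PSME3 had an unadjusted p under 0.05. The median log2 change of the proteasome genes, supernatant minus input, was 0.0044, against 0.041 for all 6434 genes, and 16 changes lay below 0 and 22 above. Among one-peak genes the medians were 0.0044 for the 36 proteasome genes and 0.037 for all 5210. Among genes above the median level of brightness they were 0.0011 for the proteasome genes and 0.027 for all.

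The changes of the proteasome genes ran from -0.12 in PSMC5 to 0.26 in PSME3. Their SD across the 38 genes was 0.071, and their quartiles were -0.024 and 0.034. The 95% intervals of single genes were wider than this spread, with a median half-width of 0.26. The lowest bound of any interval was -0.42 (PSMD1) and the highest 0.62 (PSME3). The median depended on single columns. It was -0.051 without input A and 0.024 without input B, and for all genes 0.037 and 0.027. After recentring on the non-m1A genes the median was -0.063, against -0.026 for all genes, and 32 changes then lay below 0.

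**Figure D1:**
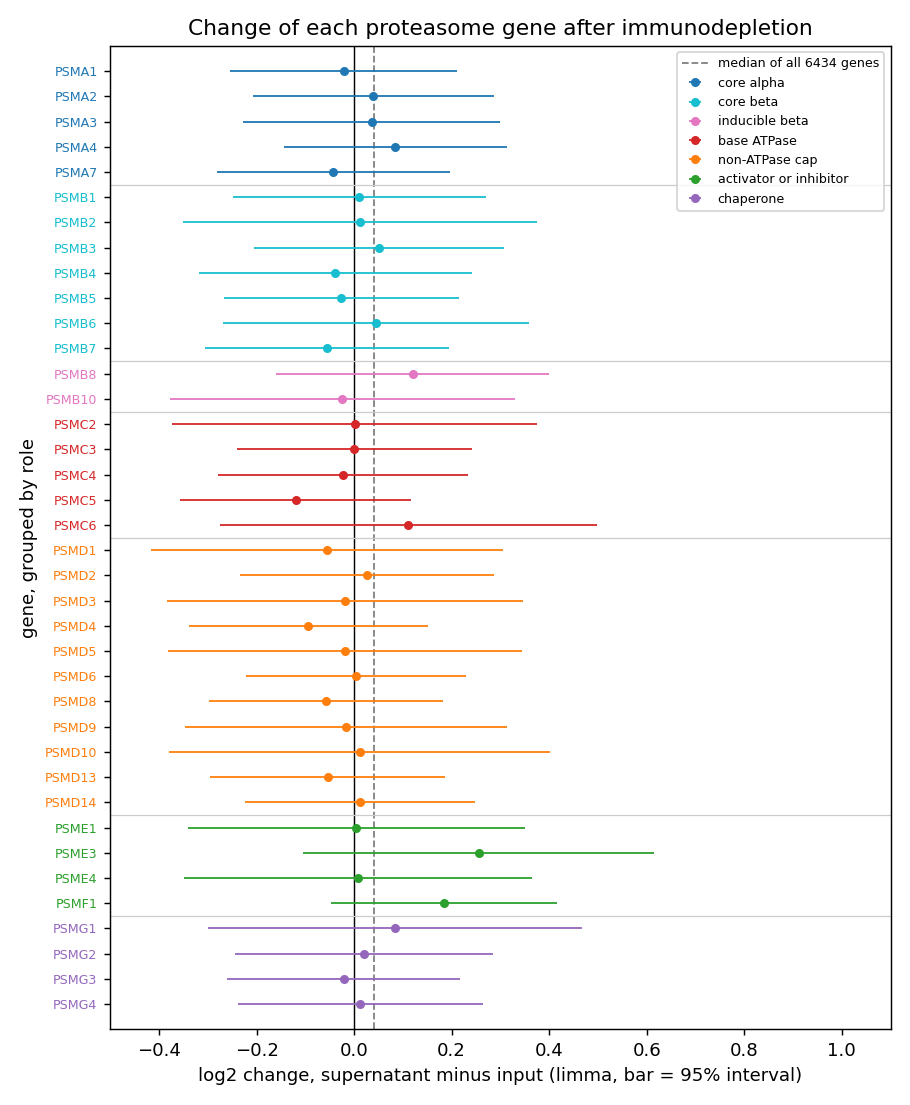
The plot shows, for each proteasome gene (vertical axis, grouped and coloured by role), the log2 change of supernatant minus input (horizontal axis) with limma's 95% interval as a bar. Every interval crosses 0, and PSME3 and PSMF1 lie farthest to the right. The dashed line is the median of all 6434 genes, 0.041.

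In 2 proteasome genes (5.26%), PSMC5 and PSMD4, both supernatants lay below both inputs, against 6.37% of all genes. In 4 (10.5%), PSMA4, PSMB8, PSME3 and PSMF1, both lay above, against 16.6% of all genes. Neither share exceeds its background. An exact two-sided test of 2 against 2 cannot give a p below 0.333.

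Proteasome genes are known to be raised together when the complex is inhibited, through the transcription factor NFE2L1 and the antioxidant response element in their promoters. The core of that element, TGACNNNGC, was looked for on both strands in RefSeq promoter windows (GRCh38.p14) of 250 bases before to 50 after a start site. The motifs given here were chosen after the promoter letters were seen, so their shares are descriptions. The core was found in 12 of the 40 windows available for 32 of the members (30%), against 13.3% of all 35116 windows. The looser form TGANNNNGC, which includes it, was in 60% of the members' windows and 41.8% of all, and TGACTCA in 7.50% and 4.95%. The strict form TGACTCAGC, which contains TGACTCA and matches both the core and the looser form, was found in 0 of 40 and in 0.561% of all windows. GGAAGT and CCGGAAG, cores of ETS factor sites, were in 50% and 25% of the members' windows, against 22.8% and 10.3% of all. CCAAT was in 40% and 34.6%, GGGCGG in 62.5% and 45.0%, and TATAAA in 7.50% and 11.5%. The background is all windows and not a set matched for base composition. These are letter matches, and the arrays do not test whether a factor binds there. The stretches of 30 bases below lie before the start site of the 5 genes that had the highest or lowest change of their role and hold the core there. Each is read 5′ to 3′ on the gene's strand, and capitals mark the match. In PSMC5 the match lies on the opposite strand.
PSMA4, chr15:78540650-78540679, plus strand: gtgggcacgaTGACTCTGCaccgcctcctc
PSMB3, chr17:38752627-38752656, plus strand: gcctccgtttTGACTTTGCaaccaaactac
PSMC5, chr17:63827654-63827683, plus strand: gaccggatctGCTGTGTCAgcgccgccctc
PSME1, chr14:24136098-24136127, plus strand: atggcagggcTGACCCCGCctcctccatcc
PSMG1, chr21:39183615-39183644, minus strand: gcccagggcaTGACAGCGCgggcgggcggt

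The alpha subunits form the outer rings of the core and gate its entrance. Of 8 alpha genes 5 were measured, all one-peak genes, with a median log2 change of 0.036. PSMA4, one of the promoters shown above, had intensities of 2381 and 2356 in supernatants A and B, against 2271 and 2197 in inputs A and B. Both supernatants were higher than both inputs, and the log2 change was 0.084 ± 0.086 (SE, limma adjusted p = 1.00). PSMA7 had the lowest change of the alpha genes. Its intensities were 3888 and 3853 in the supernatants, with 3862 and 4113 in the inputs, so the groups overlapped. Its log2 change was -0.042 ± 0.090 (SE). PSMA1, PSMA2 and PSMA3 had log2 changes of -0.021, 0.040 and 0.036.

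The beta subunits of the constitutive core include the proteolytic ones, PSMB5, PSMB6 and PSMB7, which carry chymotrypsin-like, caspase-like and trypsin-like activity. All 7 were measured, with a median log2 change of 0.011 and a range from -0.056 to 0.051. PSMB5, the main target of the inhibitor bortezomib, was the only one without an m1A peak. Its intensities were 1961 and 1881 in the supernatants, with 1903 and 2009 in the inputs, a log2 change of -0.026 ± 0.091 (SE). PSMB6 had 2544 and 2820 in the supernatants, with 2424 and 2782 in the inputs, a change of 0.045 ± 0.12. In both genes 1 supernatant value lay between the 2 input values. PSMB7, the lowest of the 7, had 1239 and 1180 in the supernatants, with 1302 and 1213 in the inputs. Its log2 change was -0.056 ± 0.094 (SE), and it was lower in the supernatant in both lettered pairs. The structural subunit gene PSMB3 was the highest, at 2708 and 2471 in the supernatants, with 2457 and 2536 in the inputs, a change of 0.051 ± 0.097. PSMB1, PSMB2 and PSMB4 had log2 changes of 0.011, 0.011 and -0.038.

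Interferon-induced beta subunits replace the constitutive catalytic ones to form the immunoproteasome, which favours peptides for antigen presentation. PSMB8 takes the place of PSMB5 and PSMB10 that of PSMB7. PSMB8 was the dimmest proteasome gene, at the 8.72 percentile of brightness over all genes. It had 42.6 and 37.3 in the supernatants, with 36.5 and 36.8 in the inputs, a log2 change of 0.12 ± 0.11 (SE). Both supernatants lay above both inputs, but the change came from pair A, with a log2 ratio of 0.22, against 0.020 in pair B. After quantile normalization the change of PSMB8 was 0.015. PSMB10 had 205 and 228 in the supernatants, with 200.2 and 241 in the inputs, which enclosed the supernatant values, and its log2 change was -0.024 ± 0.13.

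The PSMC ATPases form the ring of the cap that unfolds substrates and threads them into the core. Of 6, 5 were measured, all one-peak genes, with a median log2 change of 0.00064. PSMC5 had the lowest change of all 38 proteasome genes in the deposited intensities. Its intensities were 1356 and 1410 in supernatants A and B, against 1470 and 1537 in inputs A and B. Both supernatants were below both inputs, and the pairs were alike, each with a log2 ratio of -0.12. The log2 change was -0.12 ± 0.089 (SE, 95% interval -0.36 to 0.12, limma adjusted p = 1.00). PSMC5 was also the lowest gene without supernatant B, at -0.15, but not when another column was left out. The lowest was then PSMD10 at -0.11 without supernatant A, PSMD1 at -0.19 without input A and PSMC2 at -0.15 without input B, beside -0.092, -0.15 and -0.088 for PSMC5. PSMC6 had the highest change among the ATPases, at 985 and 901 in the supernatants, with 978 and 778 in the inputs. That value came from pair B, with a log2 ratio of 0.21, against 0.010 in pair A, and the change was 0.11 ± 0.15 (SE). PSMC2, PSMC3 and PSMC4 had log2 changes of 0.0015, 0.00064 and -0.023.

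The PSMD genes code for the scaffold, the ubiquitin receptors and the deubiquitinating lid of the cap, and PSMD5, PSMD9 and PSMD10 for chaperones that assemble its base. Of 14, 11 were measured, all with 1 m1A peak, and their median log2 change was -0.018, with 7 below 0 and 4 above. PSMD4, a ubiquitin receptor, was the lowest, with 2164 and 2168 in the supernatants against 2224 and 2402 in the inputs. Both supernatants were below both inputs, by more in pair B (log2 ratio -0.15) than in pair A (-0.039). Its log2 change was -0.094 ± 0.092 (SE). The scaffold gene PSMD2 was the highest, with 842 and 873 in the supernatants, with 802 and 883 in the inputs, a change of 0.027 ± 0.098. PSMD14, the deubiquitinase that strips ubiquitin from substrates, had 1184 and 1156 in the supernatants, with 1190 and 1131 in the inputs, with a change of 0.012 ± 0.089. The groups overlapped in both. The scaffold gene PSMD1 was at -0.055, and the lid genes PSMD3, PSMD6, PSMD8 and PSMD13 were at -0.019, 0.0040, -0.058 and -0.054. The base chaperone genes PSMD5, PSMD9 and PSMD10 were at -0.018, -0.016 and 0.011 on the same scale.

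**Figure D2:**
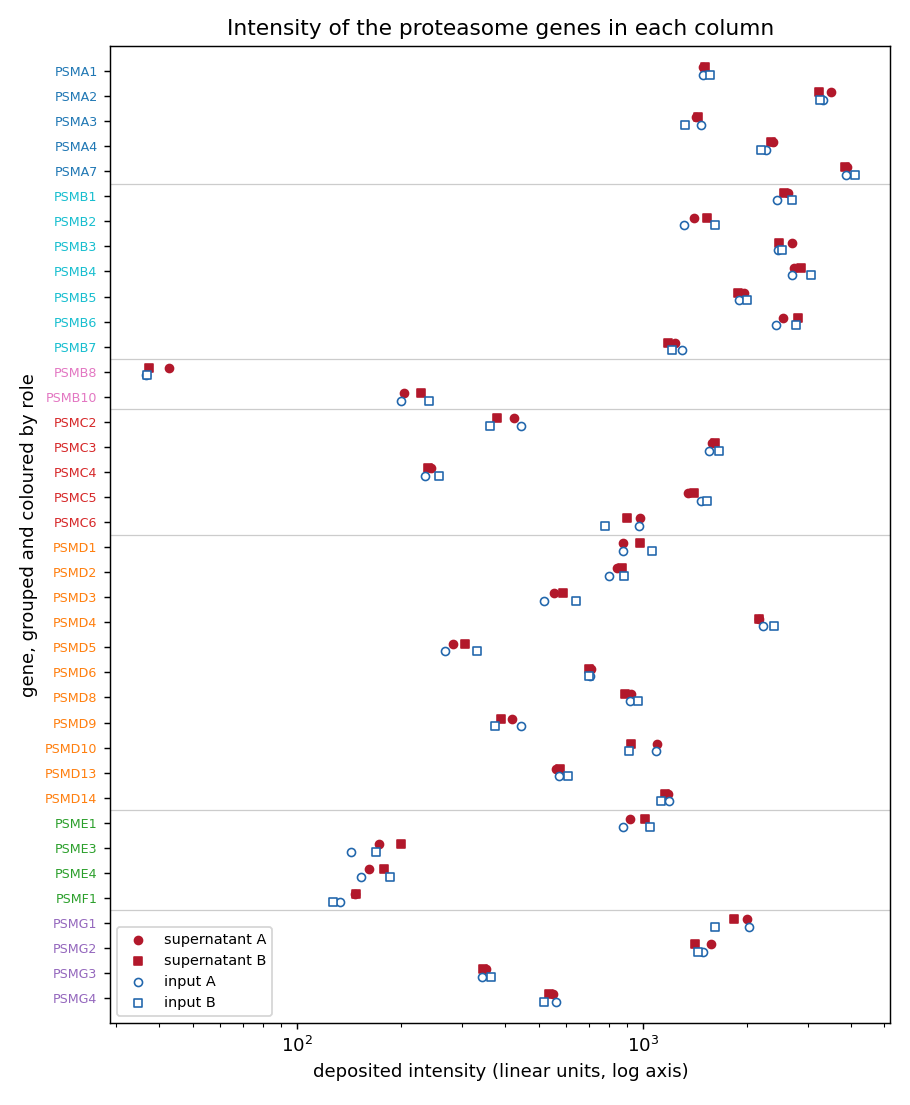
The plot gives the deposited intensity (horizontal log axis, linear units) of each proteasome gene (vertical axis, grouped by role) in supernatants A and B (filled) and inputs A and B (open). Most genes have overlapping supernatant and input values, while the PSME3 and PSMF1 supernatants lie to the right of their inputs and those of PSMC5 to the left.

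Among the activators and the inhibitor, PSME3 and PSMF1 had the highest changes of the 38 genes in the deposited intensities, while PSME1 and PSME4 lay near the median of the members. Of 5 genes 4 were measured, with a median log2 change of 0.097. PSME3, the activator of the nuclear proteasome, had 173 and 199.7 in supernatants A and B, against 143 and 169 in inputs A and B. Both supernatants were above both inputs. Pairs A and B had log2 ratios of 0.27 and 0.24. The change was 0.26 ± 0.14 (SE, 95% interval -0.10 to 0.62, limma adjusted p = 1.00). PSMF1, which inhibits the core in vitro, had 147 and 148 in the supernatants against 133 and 127 in the inputs, again without overlap. The log2 change came to 0.19 ± 0.087 (SE, 95% interval -0.046 to 0.42, limma adjusted p = 1.00), and the pairs gave 0.15 (A) and 0.22 (B). The interferon-induced activator gene PSME1 had the lowest change of the 4, 0.0048, at 919 and 1015 in the supernatants, with 879.9 and 1053 in the inputs, which enclosed the supernatant values. PSME4, whose product also activates the core, was at 0.0079. PSME3, PSMF1 and PSME4 were dim for this set, at the 49.5, 43.1 and 49.3 percentiles of brightness over all genes. Among the 34 proteasome genes above the median level the highest change was 0.11, in PSMC6. After recentring on the non-m1A genes PSME1 and PSME4 were below 0, at -0.062 and -0.059, and PSME3 was at 0.19, the highest of the 38. Left-out columns moved PSME3 by more. It was the highest gene without supernatant A, at 0.36, and without input B, at 0.38. Without supernatant B it was at 0.15, below PSMB8 at 0.21, and without input A at 0.14, below PSMC6 at 0.28.

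The PSMG chaperones guide assembly of the alpha ring, PSMG1 with PSMG2 and PSMG3 with PSMG4. All 4 were measured, with a median log2 change of 0.017. PSMG1 was the highest, at 2003 and 1841 in the supernatants, with 2032 and 1616 in the inputs. Its pairs differed in sign, as pair A gave a log2 ratio of -0.020 and pair B one of 0.19, and the change was 0.084 ± 0.14 (SE). PSMG3 was the lowest, at 353 and 345 in the supernatants, with 344 and 365 in the inputs, a change of -0.022 ± 0.090. PSMG2 and PSMG4 had changes of 0.021 and 0.013. For every chaperone gene the groups overlapped.

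In the deposited intensities the lettered pairs differed in direction for most proteasome genes, which did not hold after recentring. In 21 of 38 (55.3%) the supernatant was above the input in pair A and below it in pair B, against 24.9% of all genes. That count includes 5 of the 7 constitutive beta genes and 6 of the 11 PSMD genes. In 7 genes (18.4%) the supernatant was higher in both pairs, against 40.3% of all genes. In 4 genes (10.5%), PSMB7, PSMC5, PSMD4 and PSMD13, it was lower in both, against 14.4%. The opposite split, lower in A and higher in B, held for 6 genes (15.8%), against 20.3%. Pair A had a median log2 ratio of 0.034 and pair B one of -0.039, while over all genes these were 0.035 and 0.040. These counts move with the scaling. After recentring on the non-m1A genes 18 proteasome genes (47.4%) were lower in both pairs, against 34.3% of all genes, and 3 (7.89%) higher in both, against 17.8%. The split with A above and B below then held for 14 (36.8%), against 29.7%, and the opposite split for 3 (7.89%), against 18.2%. After quantile normalization 10 (26.3%) were lower in both pairs, against 26.2%, and 4 (10.5%) higher in both, against 24.0%. In 13 genes (34.2%) A was then above and B below, against 24.1%, and in 9 (23.7%) the reverse, against 24.4%. Across the 38 genes the ratios of one pair against the other, on the log2 scale, had a Pearson's r of 0.20 and a Spearman's rho of 0.033. Over all 6434 genes r was also low, at 0.15, with a rho of 0.063. Without PSME3 and PSMF1, r was -0.14 over the other 36 proteasome genes. All genes share the same 4 columns, so these values describe the columns and carry no p.

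**Figure D3:**
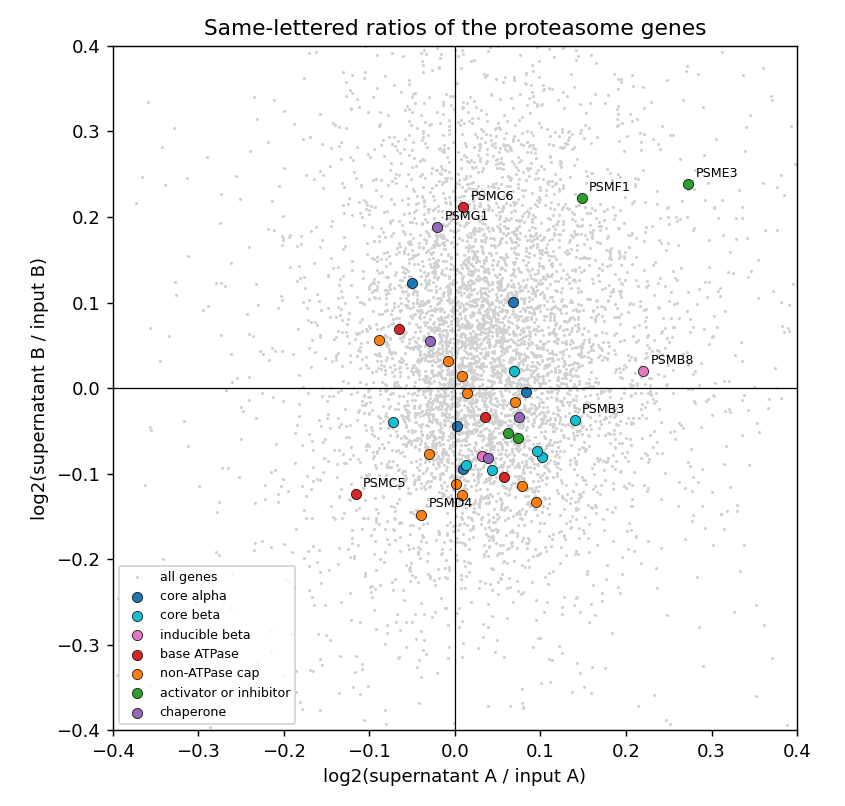
Each coloured point is a proteasome gene, placed by its log2 supernatant/input ratio in pair A (horizontal axis) and in pair B (vertical axis), and grey points are the genes of the whole table within 0.4 of 0 on both axes. In these deposited intensities the lower right part holds 21 of the 38 genes, and PSME3 and PSMF1 lie in the upper right.

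Differences between the lettered columns were as large as those between supernatant and input. For the 38 genes the median size of the log2 difference between columns A and B was 0.071 in the supernatants and 0.13 in the inputs. The median size of the log2 ratio of a supernatant to its input was 0.060 for pair A and 0.078 for pair B. All 4 medians compare 1 column with 1 column. In 28 genes (73.7%) A differed from B in the same direction in supernatant and input, as in 73.7% of all genes. Pearson's r between the 2 differences was 0.80 across the 38 genes and 0.70 across the 5874 genes at least as bright as PSMB8. The ATPase gene PSMC6 was higher in A by 0.13 in the supernatants and 0.33 in the inputs. The base chaperone gene PSMD10 was higher in A by 0.25 and 0.26. The lid gene PSMD3 was lower in A, at -0.085 in the supernatants and -0.31 in the inputs, and PSME4 was also lower, at -0.14 and -0.28. The files and labels used here do not state what the letters stand for, and their part in the changes above was not tested beyond the values per pair.

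**Figure D4:**
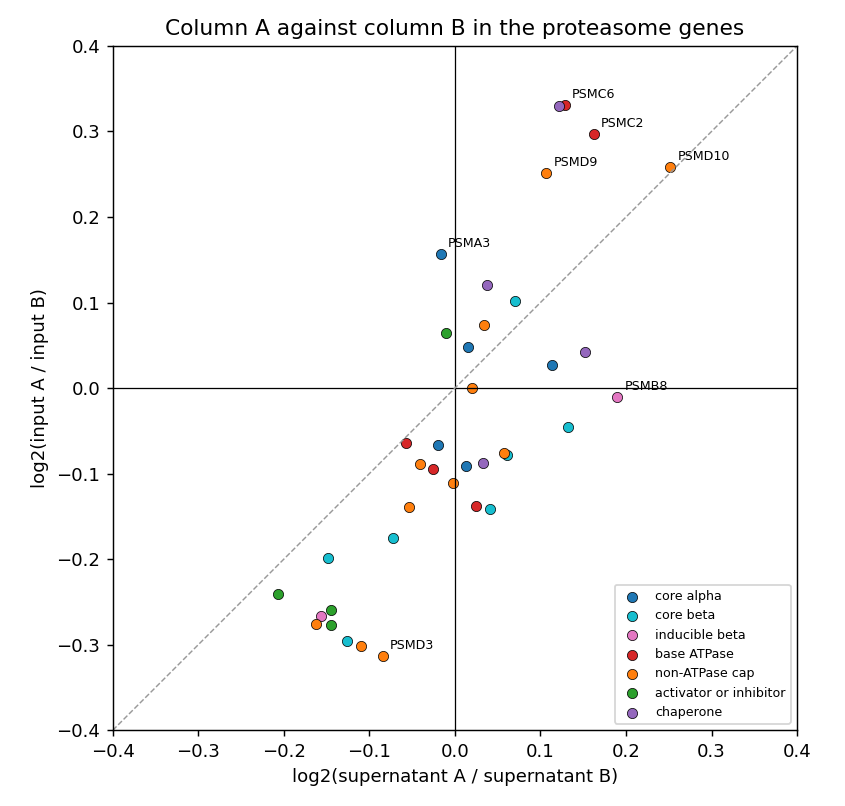
Each point is a proteasome gene, placed by its log2 difference of column A minus column B in the supernatants (horizontal axis) and in the inputs (vertical axis), with the dashed line marking equal differences. In 28 of the 38 genes both differences have the same sign, with PSMC6 and PSMD10 at the upper right and PSMD3 at the lower left. The median size is 0.071 in the supernatants and 0.13 in the inputs, so many points lie off the dashed line.

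The deposited methylated fraction is the share of a transcript taken to carry m1A. In the authors' deposited table the 36 one-peak proteasome genes had a median fraction of 0.22, with quartiles of 0.21 and 0.24. The 5210 one-peak genes had a median of 0.21 and quartiles of 0.17 and 0.23. In the authors' deposited table PSMC5 was the highest proteasome gene at 0.29, above 95.7% of one-peak genes, followed by PSMD4 at 0.27. The lowest were PSME3 at 0.08, above 2.51% of one-peak genes, PSMF1 at 0.12 and PSMC6 at 0.16. The deposited fractions of 32 of the 36 (88.9%) lay within 0.05 of the one-peak median, against 74.3% of all one-peak genes. The proteasome genes were also brighter, with a median brightness percentile of 88.2 against 56.7 for one-peak genes. Its part in the narrower range was not tested.

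**Figure D5:**
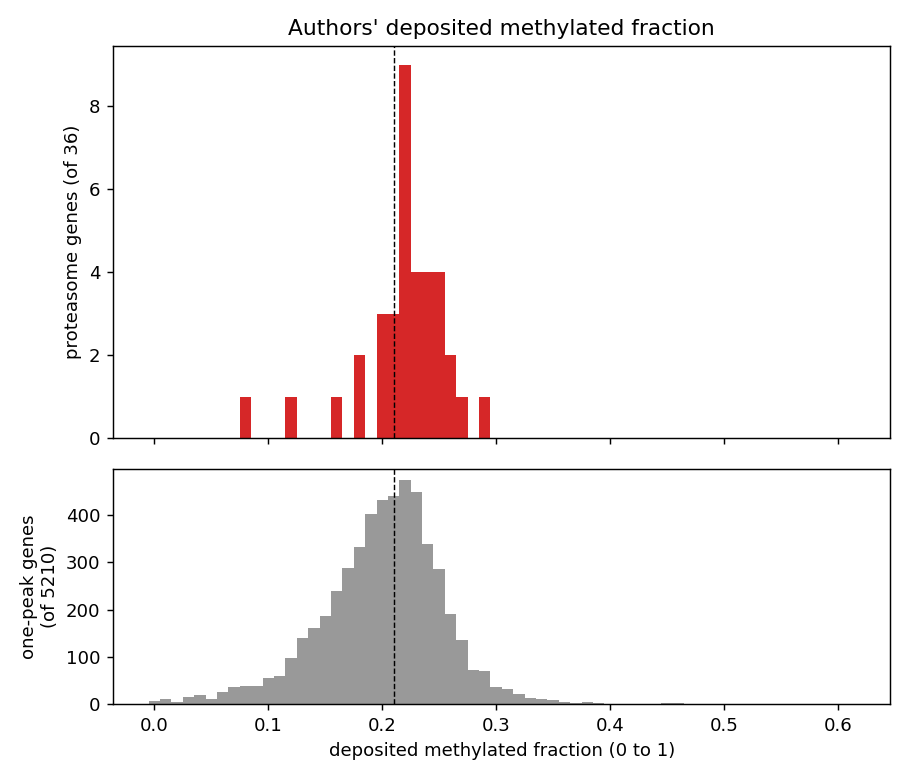
The histograms count genes by the authors' deposited methylated fraction (horizontal axis, bins of 0.01), with the 36 one-peak proteasome genes above and all 5210 one-peak genes below. Both peak near 0.22, the dashed line marks the one-peak median of 0.21, and the outlying proteasome genes are PSME3 at 0.08, PSMF1 at 0.12 and PSMC5 at 0.29.

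These fractions hold a divisor of 1.29, the mean supernatant/input ratio of the non-m1A genes, by which the authors' deposited ratios are corrected. Without it, the median fraction of the 36 genes was -0.0035, with 21 genes below 0, which means more deposited signal in the supernatant than in the input. As the scaling between columns is not stated, this signal may not follow the amount of RNA. The range was from -0.19 (PSME3) to 0.080 (PSMC5). Pair A alone gave a median of -0.016, with 26 genes below 0, and pair B alone 0.027, with 12 below 0. PSMC5 kept similar values, 0.077 from pair A and 0.082 from pair B, whereas PSMD4 had 0.027 and 0.098. With the median ratio of the non-m1A genes, 1.053, as divisor, the median fraction was 0.047. The mean ratios of PSMB5 and PSMB8, which have no peak and no fraction in the authors' deposited table, were listed there as 0.983 and 1.089.

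Other genes of the pathway were taken from a list by function. Of 28 genes such as ubiquitin precursors, shuttle factors and proteasome-bound enzymes, 19 were measured, and 0 passed limma's adjusted test in either direction. Their median log2 change was 0.013. In limma's test 1 of the 19 had an unadjusted p under 0.05, against 2.02% of all genes, which says little about so short a list. That gene was RAD23B, a shuttle factor that carries ubiquitinated proteins to the cap, with 466 and 446 in the supernatants against 672 and 621 in the inputs. That is a log2 change of -0.50 ± 0.095 (SE, limma adjusted p = 1.00), farther below 0 than the change of any proteasome gene. The next in the list by limma's statistic were AKIRIN2, which brings proteasomes into the nucleus, at 0.081, the shuttle factor gene UBQLN2 at 0.084 and the ubiquitin precursor gene RPS27A at 0.071. The core assembly factor gene POMP was at -0.067, the cap subunit gene SHFM1 at -0.013 and the cap deubiquitinase gene USP14 at -0.031. NFE2L1 and the receptor gene ADRM1 were not analysed here.

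Of 16 antigen processing genes that are interferon-induced or load peptides made by the immunoproteasome, 11 were measured and 0 passed. Their median log2 change was -0.024. In limma's test 1 of the 11 had an unadjusted p under 0.05, against 2.02% of all genes, which again says little about so short a list. That gene was the peptide transporter gene TAP2. It had 49.6 and 44.5 in the supernatants against 68.6 and 67.1 in the inputs, a change of -0.53 ± 0.10 (SE, limma adjusted p = 1.00). Its partner gene TAP1 was at 0.034, beside 0.12 for PSMB8, a neighbour in the genome. The chaperone genes of peptide loading, PDIA3 and CALR, were at -0.24 and 0.28, and HLA-E at -0.073.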

How the data were processed

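Values came from the authors' gene table, which lists deposited intensity on a linear scale in 4 columns; no source used here states how it was made. RMA, without a version, is named for the arrays per the submitters' processing notes. The table also holds the authors' deposited ratio (mean of the supernatant/input ratios) and deposited fraction (1 minus the corrected ratio). Recomputed fractions of members came within 0.0052 of the deposited ones. A second deposited table of 49395 unnamed probe sets was not used. Columns were grouped by their header names, and letters were not matched to replicate numbers.

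Log2 intensities of all 6434 genes were fitted by limma 3.58.1 (R 4.3.3; linear model and empirical Bayes, unpaired, Benjamini-Hochberg over all genes, threshold 0.05). The fit was also run on simulated data with columns drawn independently and planted changes larger than those of the proteasome genes. This cannot show how the fit behaves with correlated columns or with changes this small. Python 3.11.15, NumPy 2.4.6, pandas 2.3.3, SciPy 1.17.1 and matplotlib 3.10.9 were used. Alternatives covered a replicate block, scaling, offsets, filters on dim genes, a trended prior, divisors and each column left out. In each role the genes with the highest and lowest change are given with all values, plus the catalytic PSMB5, PSMB6 and PSMD14 and the PSMF1 gene, chosen after their values were seen. Up to 4 genes per other list are named by limma's statistic; POMP, SHFM1, USP14 and TAP1 were added after their values were seen. Members and lists were chosen with earlier results of these data known. Motifs were chosen after the promoter letters were seen. The number of arrays limits the precision.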

Additional observations from a re-analysis of the deposited data

How the results depend on the processing

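No proteasome gene passed under any of the 12 alternative fits, including those without 1 column, in which the lone sample of a group is assumed to vary like the other group. With the letter as a replicate block 0 of 38 passed, the median change stayed 0.0044 and PSME3 had an unadjusted p under 0.05. It also had one without input B. Column letters are not said to pair samples, but fractions recomputed from same-lettered pairs came within 0.0052 of the deposited ones. A minus B deviations correlated at 0.45 between groups over all genes and at 0.80 over the 38. The main fit is unpaired, so its SEs and intervals take no account of this. The median change was -0.063 once arrays were recentred on the non-m1A genes and ranged from -0.051 without input A to 0.024 without input B. The limit to genes above the median level kept 34 of the 38 and left out PSME3, PSMF1, PSME4 and PSMB8. The highest change was then 0.11, in PSMC6. The other settings of the median kept it within 1 SD between pairs. The median fraction, 0.22 as deposited, was -0.0035 without a divisor, 0.047 with the median non-m1A ratio, 0.046 with the mean ratio of bright non-m1A genes and -0.0031 from group means of log2 values. The scaled pair counts and the median without PSME3 and PSMF1, 0.0028, were chosen after seeing the data. Scaling alternatives for the table of unnamed probe sets were not run, because no table used here names its probe sets.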
